A study of Mus musculus with 4 samples.

Results

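MHC class II genes were followed across the livers of 8-week-old mice of 4 genotypes. The members are 10 genes of class II antigen presentation, named by symbol: the chain genes H2-Aa, H2-Ab1, H2-Ea and H2-Eb1, the invariant chain gene Cd74, the peptide-exchange genes H2-DMa, H2-DMb1, H2-Oa and H2-Ob, and the transactivator gene Ciita. Of these, 9 had an array row annotated with exactly 1 gene symbol, out of 19938 genes measured that way. H2-DMb1 shared its only row with its close copy H2-DMb2 and is described apart. The groups were wild type, MDR2 knockout (MDR2-null), GHR knockout (GHR-null) and the GHR/MDR2 double knockout (double-null), all labelled male. MDR2 is the product of Abcb4, a transporter that delivers phosphatidylcholine to bile, and its loss causes cholestasis with bile duct injury. GHR is the growth hormone receptor. Each genotype was 1 Affymetrix whole-transcript array, hybridised with RNA pooled from 3 livers, so animals within a genotype cannot be compared and no difference between 2 arrays has a replicate error. Labels name neither the strain, the H2 haplotype nor the way either knockout was made.

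Class II molecules are pairs of an alpha and a beta chain that carry peptides to the cell surface for CD4 T cells. In the endoplasmic reticulum the invariant chain, encoded by Cd74, fills their groove; in endosomes it is cut down, and the DM molecule (H2-DMa with H2-DMb1) exchanges its last fragment for antigen peptides, while DO (H2-Oa with H2-Ob) holds DM back. Ciita is the master regulator of these genes and is itself induced by interferon gamma in many cell types. In liver, class II is known mainly from Kupffer cells, recruited macrophages, dendritic cells and B cells, and it can appear on injured bile duct epithelium.

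The class II promoters share an X box, bound by RFX and CREB family proteins, and a Y box, bound by NF-Y, on which CIITA docks. Promoter windows of RefSeq (GRCm38.p6, 250 bases before to 50 after the start) were present for 6 of the 10 members: H2-Aa, H2-Eb1, H2-DMa, H2-DMb1, H2-Oa and H2-Ob. They were searched for an X core, GNAAC, followed by a Y core, GATTGG, on the gene strand and on the other strand, with 25 to 40 bases from the first base of one to the first base of the other. Letters and spacing were chosen after the windows had been seen. The pair was found on the gene strand in 5 of these 6 genes, and in 0.457% of the 32851 windows of the whole table (0.922% on either strand). By gene, the pair was found in 137 of the 27025 genes of the table. Because letters and spacing were set on the members' own windows, these shares are a description and not an independent comparison. The stretches are shown because 5 of the 6 genes with a window share this feature. Capitals mark the X core and then the Y core.
H2-Aa: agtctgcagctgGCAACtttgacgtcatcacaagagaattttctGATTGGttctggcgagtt
H2-Eb1: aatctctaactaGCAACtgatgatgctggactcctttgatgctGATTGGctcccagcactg
H2-DMb1: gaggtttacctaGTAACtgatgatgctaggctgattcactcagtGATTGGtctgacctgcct
H2-Oa: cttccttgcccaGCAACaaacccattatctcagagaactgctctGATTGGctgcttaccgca
H2-Ob: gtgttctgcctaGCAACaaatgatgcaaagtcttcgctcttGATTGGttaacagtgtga

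On GRCm38.p6 these stretches lie at chr17:34287855-34287916 (H2-Aa, minus strand), chr17:34305764-34305824 (H2-Eb1, plus strand), chr17:34153085-34153146 (H2-DMb1, plus strand), chr17:34092291-34092352 (H2-Oa, plus strand) and chr17:34238806-34238864 (H2-Ob, plus strand). The X core began 81 bases before the start in H2-Aa, 91 in H2-Eb1, 94 in H2-DMb1, 76 in H2-Oa and 87 in H2-Ob. Spacing from X to Y was 32 bases in H2-Aa, H2-DMb1 and H2-Oa, 31 in H2-Eb1 and 29 in H2-Ob. The pair, at this spacing, was not found in either window of H2-DMa. Of the genes with the pair, H2-Aa and H2-Eb1 were at least 1.5-fold higher with MDR2 loss, and H2-Oa and H2-Ob were under the level filter defined with the values. Of 104 measured genes with the pair on the gene strand, 55 reached an intensity of 100 in the wild-type or MDR2-null pool. Of these 55, 5 were at least 1.5-fold higher in the MDR2-null pool: H2-Aa, H2-Eb1 and 3 genes outside class II. Over all 10258 genes passing, 6.11% were as much higher, so 3 of 53 non-members stands near the background. The log2 difference of the 53 non-members among the 55 had a median of 0.01.

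**Figure D1:**
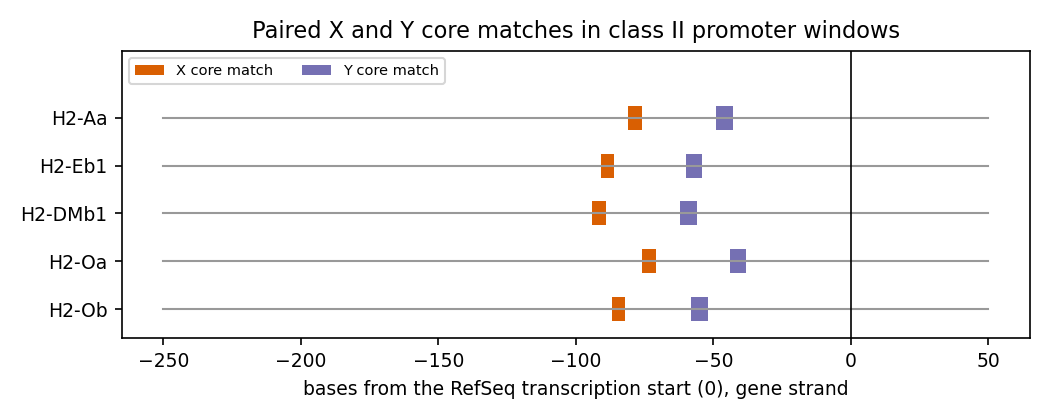
Position of the paired X core (orange) and Y core (purple) matches in the promoter windows of 5 class II genes, in bases from the RefSeq transcription start, on the gene strand; grey lines are the windows searched. X cores start 76 to 94 bases before the start and Y cores follow 29 to 32 bases later.

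Before the members, the arrays were checked. Ghr intensity was 4944 in wild-type, 4485 in MDR2-null, 1395 in GHR-null and 935 in double-null liver, and Abcb4 was 1120, 663, 1346 and 689 in the same order. The parts of both genes that the probes read are not known here. Hepatocyte markers were present in every pool, with Alb (chosen after its values were seen) at 13255 to 15283, and the median difference of 13 such markers was between -0.04 and 0.03 on the log2 scale in all comparisons. Xist, the RNA of the inactive X chromosome in female cells, was 16 to 18 in 3 pools but 1400 in GHR-null liver, which is labelled male like the rest. The Y-linked genes were present in every pool: in GHR-null liver Eif2s3y was 680, against 840 to 951 in the others, Uty 308, against 345 to 368, and Kdm5d 259, against 212 to 268. Every comparison with the GHR-null pool rests on that array, so each is given beside the comparison that does not use it.

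Loss of MDR2 came with higher levels of every class II gene that stood above the level filter. The filter is an intensity of 100, the median of all rows with 1 symbol; a comparison counts a gene only where the higher of its arrays reaches it. Between MDR2-null and wild-type liver, 6 of the 9 measured members passed it, and all 6 were at least 1.5-fold higher, where 6.11% of 10258 genes were; none was 1.5-fold lower, where 3.58% were. The median log2 difference over the 9 members was 1.48, against -0.04 over all genes passing. The same loss with GHR already absent, in the double-null against the GHR-null pool, again placed 6 of 6 members at least 1.5-fold higher and none lower, where 9.99% and 9.94% of 10514 genes were higher and lower, with a member median of 1.08.

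The classical pair H2-Aa and H2-Ab1 encodes the alpha and beta chain of the A molecule, the main class II molecule of mice. H2-Aa intensity was 654 in wild-type, 1826 in MDR2-null, 970 in GHR-null and 2763 in double-null liver. Both pools without MDR2 were above both pools with it, and the double-null pool was the highest. MDR2 loss thus went with 2.79-fold more H2-Aa with GHR intact and 2.85-fold more without it. H2-Ab1 was 535, 1424, 682 and 1673 in the same order of pools, 2.66-fold higher with MDR2 loss in the presence of GHR and 2.45-fold in its absence. The log2 differences of both partners with MDR2 loss were 0.07 apart with GHR intact and 0.22 apart without GHR.

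H2-Ea and H2-Eb1 encode the chains of the E molecule. H2-Ea is known to be silent in mice of several haplotypes, among them the one carried by C57BL/6, whose RefSeq assembly lists it as a transcribed pseudogene. H2-Ea was 299 in wild-type, 2927 in MDR2-null, 822 in GHR-null and 2854 in double-null liver. It stood above the level filter in all pools and had the largest MDR2-null against wild-type fold of the members, 9.79. With GHR absent the fold was 3.47, from the higher GHR-null value. H2-Eb1 was 426, 1355, 668 and 1266 in the same order, 3.18-fold higher with MDR2 loss in the presence of GHR and 1.90-fold in its absence. The log2 difference of H2-Ea was 1.62 above that of its partner H2-Eb1 when MDR2 was lost with GHR intact. With strain and haplotype not labelled, a difference of haplotype between the pools and an effect of genotype on H2-Ea cannot be told apart; what allelic differences do to the other H2 probe sets was not tested.

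Cd74 encodes the invariant chain and lies outside the H2 region. Its intensity was 438 in wild-type, 1986 in MDR2-null, 764 in GHR-null and 2153 in double-null liver. Cd74 was 4.53-fold higher with MDR2 loss while GHR was present and 2.82-fold higher while it was absent. Among the members that difference, 2.18 on the log2 scale with GHR intact, was second to that of H2-Ea. The higher values with MDR2 loss thus included a gene outside the H2 region.

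H2-DMa, the alpha chain of the peptide exchanger, was 154 in wild-type, 468 in MDR2-null, 232 in GHR-null and 490 in double-null liver. It was 3.04-fold higher in the MDR2-null than in the wild-type pool and 2.11-fold higher in the double-null than in the GHR-null pool. H2-DMa thus followed the chain genes it serves: its log2 difference with MDR2 loss was 0.19 above that of H2-Ab1 with GHR intact and 0.22 below it without GHR. The row shared by H2-DMb1, which encodes the beta chain, and H2-DMb2 was 103, 214, 143 and 306 in the same order of pools, with both pools lacking MDR2 again above both others.

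H2-Oa, H2-Ob and Ciita were under the level filter on all 4 arrays, so their differences are not shown to be above background. H2-Oa, the alpha chain of the DM inhibitor, was 43 in wild-type, 59 in MDR2-null, 42 in GHR-null and 53 in double-null liver. H2-Ob, its beta chain, was 73, 79, 73 and 89. Ciita was 54, 90, 53 and 87: its values in both pools without MDR2 were near each other, as were those in both pools with it. On the log2 scale the Ciita difference was 0.74 with GHR intact and 0.72 without GHR.

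**Figure D2:**
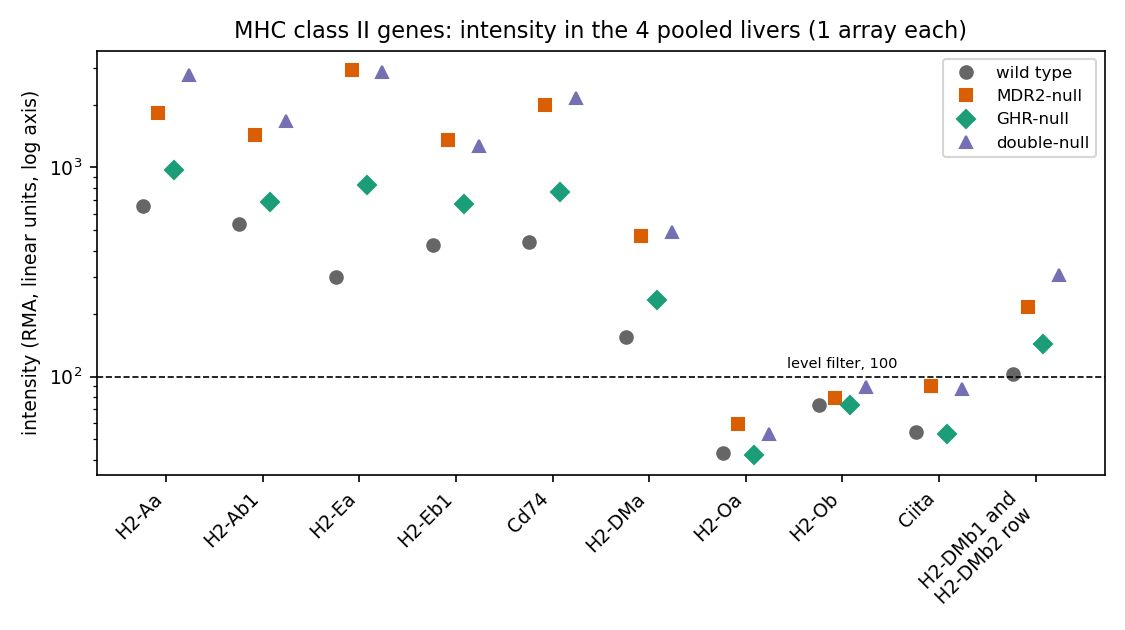
Intensity (linear RMA units on a log axis) of the 9 class II members with a row of their own, and of the row shared by H2-DMb1 and H2-DMb2, in the 4 pools; each symbol is 1 array and the dashed line is the level filter at 100. For the first 6 genes both pools without MDR2 lie above both pools with it, while H2-Oa, H2-Ob and Ciita stay under the line.

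The only fit with residual degrees of freedom was an additive one over all 4 arrays, limma on log2 intensity with MDR2 loss and GHR loss as factors and Benjamini-Hochberg adjustment over 10764 genes. For MDR2 loss, 6 of the 6 members tested were called higher at an adjusted p under 0.05 and none lower, where 2.99% of genes were called higher and 0.762% lower. With the filter kept, limma with trend and robust settings called 5 of them higher. The average log2 effects were 1.5 (SE 0.14) for H2-Aa, 1.35 (SE 0.14) for H2-Ab1, 2.54 (SE 0.35) for H2-Ea, 1.30 (SE 0.21) for H2-Eb1, 1.84 (SE 0.20) for Cd74 and 1.34 (SE 0.18) for H2-DMa. Limma's adjusted p-values lay between 0.0196 for H2-Aa and 0.0424 for H2-Eb1. The calls need the level filter: with all 19938 genes in the limma fit, where the estimated prior degrees of freedom were 1.411 in place of 4.337, no gene at all was called for MDR2 loss (2927 genes, 8 of the 9 members among them, had an unadjusted p under 0.05), and the adjusted p of each of these 6 members was 0.327. Over all settings tried, limma's adjusted p ran from 0.0124 to 0.327 for H2-Aa and from 0.0355 to 0.327 for H2-Eb1. The fit has 1 residual degree of freedom, assumes equal effects in both backgrounds and cannot be made without the GHR-null pool. With 1 pool per genotype its p-values measure departures of arrays from additivity, not the spread between animals.

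Loss of GHR with MDR2 intact also went with higher class II values, though by less. In the GHR-null against the wild-type pool, 4 of the 6 members passing the filter were higher by 1.5-fold or more and none lower by as much, where 4.26% and 2.48% of 10052 genes were. H2-Ea was 2.75-fold higher, Cd74 1.74-fold, H2-Eb1 1.57-fold and H2-DMa 1.51-fold, while H2-Aa at 1.48-fold and H2-Ab1 at 1.27-fold did not reach the threshold. The median over 9 members was 0.57, against 0.10 over all genes. Median centring of the arrays (over genes above the filter), which moved the median of all genes by -0.12, left 2 of 6 members past 1.5-fold, and so did cyclic loess. This is the pool with Xist at 1400, and the part of that in the class II values was not tested. B cell markers stood mostly under the filter. In GHR-null liver 8 of the 11 were above wild type, where 66.7% of all genes passing were. This share stands near that background, which leaves out genes under the filter. The summed intensity of the B cell markers was 629 in wild-type, 709 in MDR2-null, 795 in GHR-null and 664 in double-null liver. Bank1, a B cell scaffold gene, was 96, 147, 172 and 128. The sums of the 12 T cell markers were 574, 660, 699 and 615. Without Cd3e, a choice made after seeing the data, they were 480, 540, 525 and 510, highest in MDR2-null liver. Cd3e of the T cell receptor complex was 94, 120, 174 and 105. Their part in the class II values was not tested.

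With MDR2 already lost, where Xist was 18 and 17, 5 of the 6 members differed by no more than 1.17-fold between the pools with and without GHR. In the double-null against the MDR2-null pool 1 of 6 members was at least 1.5-fold higher and none lower, where 7.17% and 3.89% of 10524 genes were, so the share of members stands near the background. That member was H2-Aa at 1.51-fold, which median centring took under the threshold. H2-Ab1 was 1.17-fold, Cd74 1.08-fold and H2-DMa 1.05-fold higher, and H2-Eb1 was 1.07-fold and H2-Ea 1.03-fold lower. The member median was 0.07 and that of all genes 0.06. Scaling turned signs this near to 0: hepatocyte centring gave H2-Ea 0.05 in place of -0.04 (log2), and median centring gave H2-DMa -0.02 and the member median -0.02. Averaged over both backgrounds, the limma effect of GHR loss was called for none of the 6 members, and 1 of them, H2-Aa, had an unadjusted limma p under 0.05 (0.00692, adjusted 0.215). Limma with trend and robust settings called none either. Over all genes limma called 0.204% higher and 0.316% lower for GHR loss.

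The double-null against the wild-type pool adds both losses and does not use the GHR-null array. All 6 members passing were higher by 1.5-fold or more and none lower by as much, where 13.7% and 7.59% of 10487 genes were. Folds ran from 2.97 for H2-Eb1 to 9.55 for H2-Ea, with Cd74 at 4.92 and H2-Aa at 4.22. This comparison shares its control array with the MDR2-null against wild-type one, in which H2-Eb1 was at 3.18-fold, H2-Ea at 9.79-fold, Cd74 at 4.53-fold and H2-Aa at 2.79-fold.

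**Figure D3:**
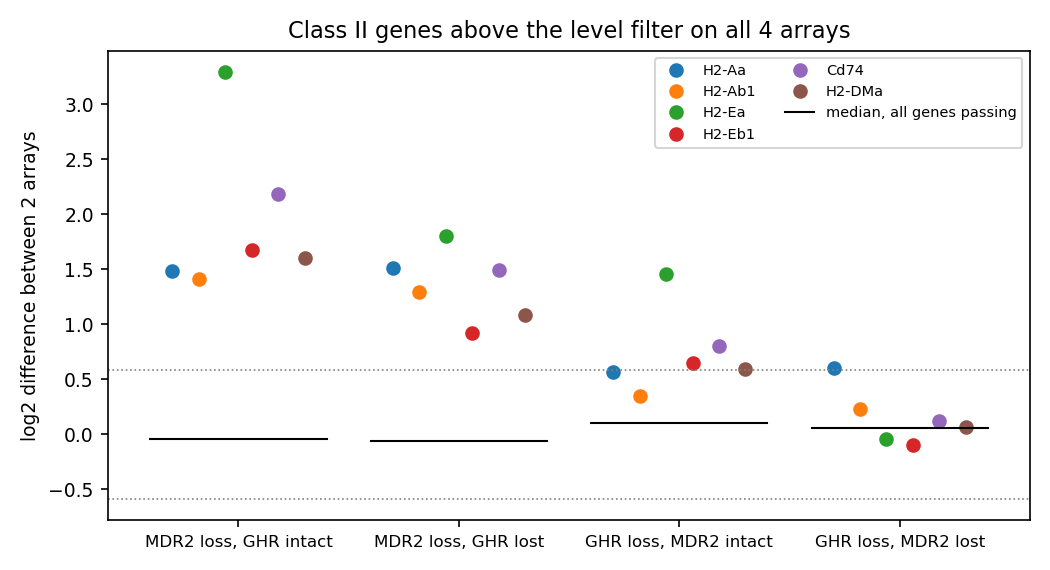
Log2 difference between 2 arrays for the 6 class II genes above the level filter on all 4 arrays, with MDR2 loss (left pair of columns) and GHR loss (right pair), each with the other gene intact and lost; black lines are the medians of all genes passing the filter and dotted lines mark 1.5-fold. With MDR2 loss the 6 genes lie between 0.92 and 3.29, and with GHR loss on the MDR2-null background between -0.10 and 0.60.

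Non-additivity, the MDR2-loss difference without GHR minus that with GHR, was nearer 0 for the A chains than for the other 4 members above the filter. A value near 0 was not confined to the A chains: the row shared by H2-DMb1 and H2-DMb2 was at 0.04. Non-additivity was 0.03 for H2-Aa and -0.12 for H2-Ab1 on the log2 scale, so for both chains of the A molecule the differences nearly added up. It was -1.5 for H2-Ea, -0.75 for H2-Eb1, -0.69 for Cd74 and -0.52 for H2-DMa, which means that their double-null values were lower than the sum of both single differences would give. The spread of this quantity over the 10764 genes that passed the filter on at least 1 array, as a robust SD, was 0.325. Of these genes 18.9% were below minus 1 robust SD. Among the 9 members 4 were, all of them among the 6 above the filter. H2-Oa, H2-Ob and Ciita, under the filter, are not among the 10764 genes. With 1 array per genotype this quantity has no error of its own, and it contains the GHR-null array.

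**Figure D4:**
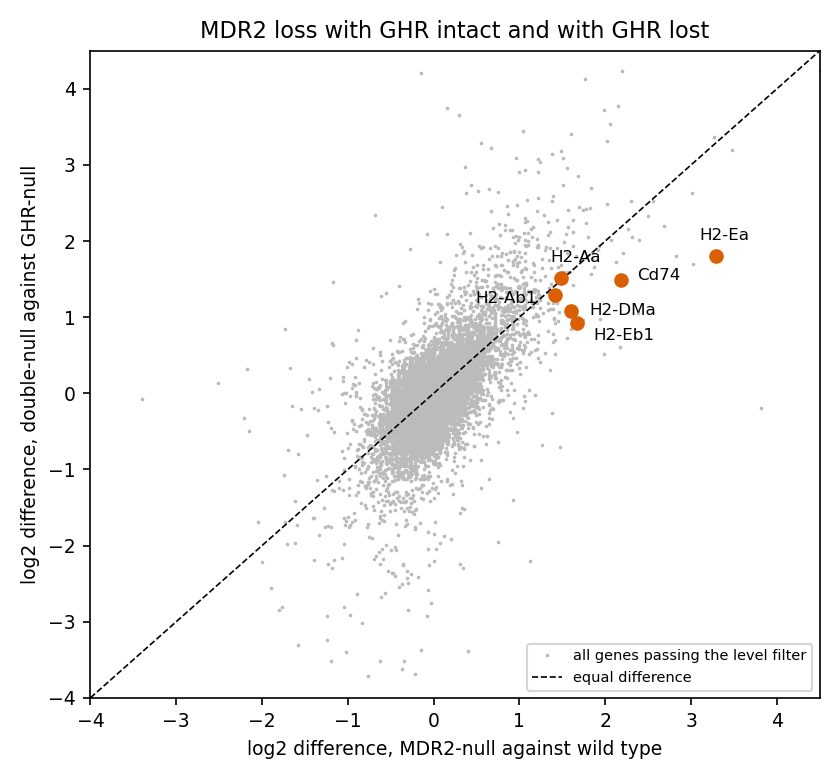
Log2 difference with MDR2 loss when GHR is intact (horizontal) and when GHR is lost (vertical) for 10764 genes (grey; 11 lie outside the axes), with the 6 class II genes above the filter in orange; the dashed line marks equal differences. H2-Aa and H2-Ab1 lie on or near the line, and H2-Ea, Cd74, H2-Eb1 and H2-DMa lie under it.

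Markers of the cells that can carry class II were read beside the members. In bulk liver, fewer cells of a type and less RNA per cell cannot be told apart. With MDR2 loss and GHR intact, leukocyte genes were higher by a median of 0.94 over 9 measured genes (log2), with 6 of the 8 passing at least 1.5-fold higher, among them Laptm5 at 308 and 932, Itgb2 at 82 and 223 and Cd53 at 218 and 572. Macrophage markers had a median of 1.03, with 13 of 16 passing genes at least 1.5-fold higher. The monocyte chemokine receptor Ccr2 was 29 without and 118 with the loss of MDR2. The endotoxin co-receptor Cd14 was 83 and 296, and the lysozyme gene Lyz2 was 847 and 2879. Over all genes passing, 6.11% were at least 1.5-fold higher. Some genes in both counts, Itgb2, Ccr2 and Cd14 among them, passed the filter only through the MDR2-null pool, which favours a count as higher. The class II median in that comparison was 1.48.

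Between double-null and MDR2-null liver both lists had higher medians than class II. Macrophage markers had a median of 0.39 and 6 of 17 passing genes at least 1.5-fold higher, led by the fractalkine receptor Cx3cr1 at 168 and 525, and the leukocyte genes a median of 0.43 with 3 of 9, against 0.07 for class II. Of the 18 macrophage markers 14 were above 0 in this comparison, where 57.8% of all genes passing were. Over all genes passing, 7.17% were at least 1.5-fold higher. In these counts the macrophage marker Itgam and the leukocyte gene Coro1a passed the filter only through the double-null pool, which favours a count as higher. Genes known from resident Kupffer cells, chosen here after their values were seen, were mixed: Clec4f was 885 and 628, Timd4 323 and 258, Cd5l 604 and 468 and Vsig4 1578 and 1426, while Marco was 71 and 85 and Adgre1 593 and 645. None of these was 1.5-fold apart. With GHR loss alone, Clec4f went from 677 to 993 and Cx3cr1 from 72 to 62, with a macrophage median of 0.50 and a class II median of 0.57. Summed over the 18 measured macrophage markers, intensity was 6303 in wild-type, 13833 in MDR2-null, 8810 in GHR-null and 18543 in double-null liver, and summed over the 9 class II members it was 2676, 10214, 4306 and 11428. The summed intensity of the 9 leukocyte genes was 1374, 2883, 2155 and 3769. The part of these cells in the class II values was not tested.

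Dendritic, B and T cell markers stood mostly under the level filter. Of 14 dendritic cell markers 9 were under it on all arrays, of 11 B cell markers 8, and of 12 T cell markers 11. With MDR2 loss and GHR intact the dendritic median was 0.41, with the lectin Cd209a at 64 and 119, Siglech of plasmacytoid cells at 42 and 89, and the integrin Itgax at 50 and 80. Itgax went on to 172 in the double-null pool. The B cell median was 0.07, with Bank1 at 96 and 147, Ms4a1, which encodes CD20, at 23 and 24 and Cd79a of the B cell receptor at 20 in both pools (Ms4a1 and Cd79a chosen after their values were seen). T cell markers had a median of 0.17. Over the dendritic list, summed intensity was 4830 in wild-type, 4720 in MDR2-null, 4986 in GHR-null and 3647 in double-null liver, most of it from Kmo, which hepatocytes also express. Bile duct markers had a median of 0.96 with MDR2 loss alone and of 0.99 with the further loss of GHR, where the class II median was 0.07. With MDR2 loss in the absence of GHR the bile duct median was 1.91 and the class II median 1.08. Epcam, an epithelial adhesion gene, was 48 in wild-type, 113 in MDR2-null, 40 in GHR-null and 329 in double-null liver. The keratin gene Krt23, with the largest difference of that list between MDR2-null and wild-type liver, was 38, 171, 222 and 340. With GHR loss alone the bile duct median was -0.04. There 5 of the 11 measured genes were above 0, where 66.7% of all genes passing were.

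Genes that act on the class II promoters, or carry the interferon gamma signal to them, had a median difference of 0.09 with MDR2 loss alone, against 1.48 for the members. Of 13 passing genes of this list 1 was at least 1.5-fold higher and 1 lower, where 6.11% and 3.58% of all genes passing were. Ifngr1, a chain of the interferon gamma receptor, was 472 in wild-type, 831 in MDR2-null, 594 in GHR-null and 1564 in double-null liver. Rfxank, an RFX subunit, was 386, 255, 242 and 217, highest in the wild-type pool. Ifng itself, chosen after its values were seen, was 37 to 43, under the filter in every pool. Nfya, an NF-Y subunit, was 281, 317, 293 and 453.

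Several interferon gamma targets were at least 1.5-fold lower in double-null than in MDR2-null liver, where no class II member was. Past the 1.5-fold threshold were 5 of the 9 passing target genes on the lower side and 1 on the higher side, where 3.89% and 7.17% of all genes passing were. Among the lower genes, Cxcl9 and Cxcl11 passed the filter only through the MDR2-null pool, which favours a count as lower. The median over 12 measured genes was -0.31. Cxcl9, a chemokine for T cells, was 216 in wild-type, 470 in MDR2-null, 367 in GHR-null and 80 in double-null liver. Iigp1, an immunity-related GTPase, was 1219, 978, 789 and 249. Set beside them, Cd74 went from 1986 (MDR2-null) to 2153 (double-null) and H2-Eb1 from 1355 to 1266. Cxcl11, a further chemokine, was 196, 143, 369 and 70, while Icam1, an adhesion molecule, was 154, 346, 224 and 579, the order seen for H2-Aa. Class I presentation genes had a median of 0.34 with MDR2 loss alone and of -0.25 with the further loss of GHR. In the latter comparison none of 11 was 1.5-fold apart and all 11 were lower, while 57.8% of all genes passing were higher. The immunoproteasome gene Psmb8 was 270, 406, 290 and 273 and the peptide transporter gene Tap1 190, 240, 216 and 161; both lie in the H2 class II region itself. H2-K1 and H2-D1 were not analysed here.

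Endosomal genes that prepare peptides and trim the invariant chain were higher in part. Of 12 passing genes 3 were at least 1.5-fold higher in the MDR2-null than in the wild-type pool and none lower. Over all genes passing, 6.11% were higher and 3.58% lower by as much. The median over 14 measured genes of the list was 0.24. Ctss, the protease that makes the last cuts in the invariant chain, was 319 in wild-type, 825 in MDR2-null, 450 in GHR-null and 1410 in double-null liver. Ifi30, a lysosomal thiol reductase, was 259, 521, 391 and 518, and Lgmn, an asparagine endopeptidase, 1026, 1771, 1376 and 2293. Between the double-null and the MDR2-null pool Ctss differed 0.77 on the log2 scale, against 0.12 for Cd74, while Ifi30 was level at -0.01. Of 10 costimulation and checkpoint genes, 8 were under the filter on all arrays, among them Cd80 at 46, 63, 56 and 96 and Cd86 at 50, 62, 61 and 74. The other two reached it: Cd40 was 79, 109, 96 and 122, and Cd48 was 51, 91, 75 and 179.

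**Figure D5:**
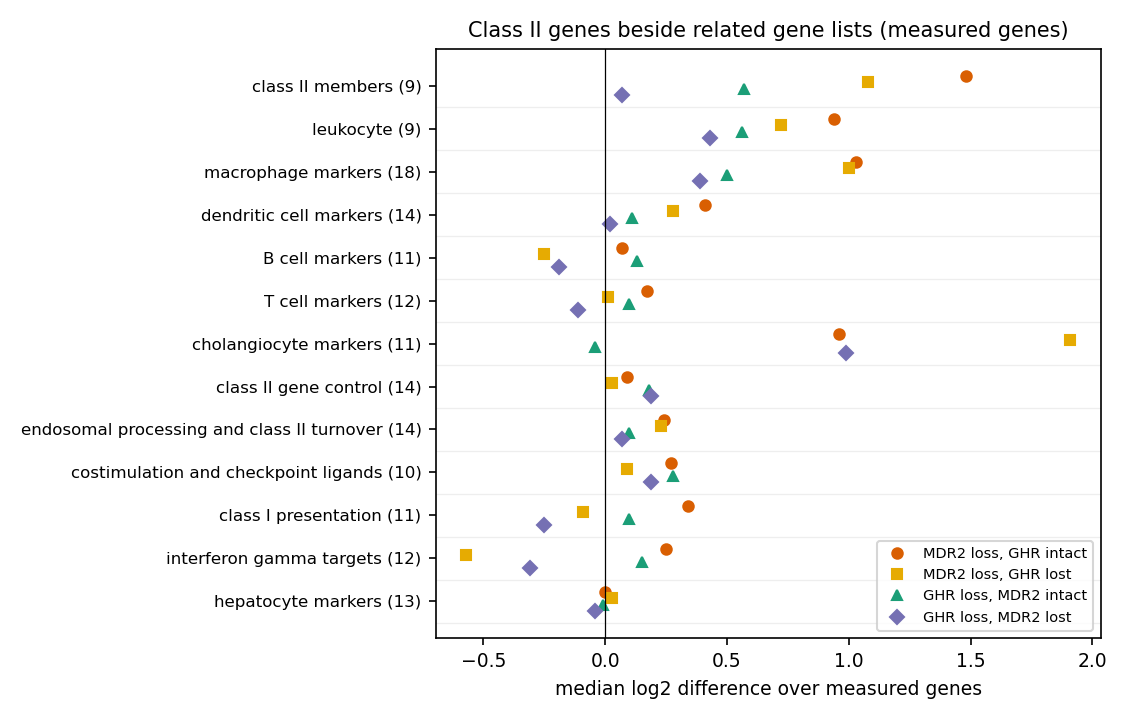
Median log2 difference of the class II members and of 12 related gene lists (number of measured genes in brackets) with MDR2 loss and with GHR loss, each with the other gene intact and lost. With MDR2 loss and GHR intact the class II median, 1.48, is the highest shown. With MDR2 loss and GHR lost it is 1.08, and the bile duct list is higher, at 1.91. With GHR loss on the MDR2-null background the class II median is 0.07, while the bile duct list is at 0.99 and the interferon gamma targets at -0.31.

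Genes with the pattern most like that of H2-Aa, H2-Ab1, H2-Eb1 and Cd74 were found by the root mean square distance between their 3 log2 differences from wild type (1 per knockout pool) and the mean of these 4 genes, which was 1.69, 0.59 and 1.90 for the MDR2-null, GHR-null and double-null pools. H2-DMa, which was not in that mean, was the nearest of 10764 genes, at a distance of 0.14. The other genes among the nearest 10 besides H2-Aa and H2-Eb1 were Itgb2 (0.151), the matrix gene Ccdc80 (0.154), the bacterial lipoprotein receptor gene Tlr2 (0.178), the basement membrane gene Nid1 (0.189), the Fc receptor subunit gene Fcer1g (0.207), the Golgi membrane gene Golm1 (0.21) and the immediate early gene Nr4a1 (0.211). H2-Ab1 ranked 18, Cd74 59 and H2-Ea, at a distance of 1.31, 2572. The measure rests on 4 arrays that share the wild-type array as their reference point, and it is a description.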

How the data were processed

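The members and gene lists were chosen with earlier results of these data known. The deposited table holds 1 linear intensity per row and array, whole numbers from 6 to 22355; per the submitters' processing notes the authors used RMA in Affymetrix Expression Console 1.1, a background correction with quantile normalization and a summary over probes. No scanner files or detection calls were used here, and rounding makes differences between low values coarse. Of 35556 rows, 21789 had 1 gene symbol in GEO's platform annotation (1621 several, 12146 none); 21698 matched RefSeq GRCm38.p6 by gene identifier. A gene with several rows (999 of 19938) took the row with the highest mean. Intensities were set on the log2 scale and compared between single arrays at a 1.5-fold threshold, above a level filter of 100. Pairs of arrays had a Pearson r of 0.970 to 0.988; precision is limited by the number of arrays, 1 per genotype. The additive fit used limma 3.58.1 in R 4.3.3 (lmFit, eBayes). It was run on simulated data with additive effects and noise drawn from the fit's own prior. Such data cannot show how the fit behaves where effects do not add. No build is named for the probe sets, and coordinates are those of RefSeq's promoter windows. Named genes were the members, the targeted and sex-linked genes, up to 3 members of each list with the largest difference in the MDR2-null against wild-type and the double-null against MDR2-null comparisons, and the 10 nearest patterns; others are marked as chosen after their values were seen. Alternatives were no filter or one at the 75th percentile (329), a 2-fold threshold, cyclic loess, centring on passing genes or on hepatocyte markers, the mean of a gene's rows and limma with trend and robust settings.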

Additional observations from a re-analysis of the deposited data

Results flagged for a closer look

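The row shared by H2-DMb1 and H2-DMb2, the beta chain genes of the DM molecule, entered no count of members because its signal cannot be assigned to either gene. It was 103 in wild-type, 214 in MDR2-null, 143 in GHR-null and 306 in double-null liver, 2.08-fold higher in the MDR2-null than in the wild-type pool and 2.97-fold higher in the double-null pool. Its non-additivity was 0.04 on the log2 scale.

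H2-Eb1 and H2-Ea went in opposite directions with GHR loss, higher with MDR2 intact (0.65 and 1.46 on the log2 scale) and slightly lower with MDR2 lost (-0.10 and -0.04). With hepatocyte centring the latter values were -0.01 for H2-Eb1 and 0.05 for H2-Ea, so the opposite direction of H2-Ea does not hold there. Their non-additivity was -0.75 and -1.5; with 1 array per genotype this difference was not tested.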

How the results depend on the processing

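Of 115 recomputed counts and medians, 108 stayed within 1.5 times the main count or within 0.23 (log2) of the main median, and so did all 180 recomputed differences of single members. Much of this was fixed in advance. Each member had 1 row, so the mean of a gene's rows could not change its value. Both centrings moved all genes of a comparison by the same amount, at most 0.14, which is inside the limit of 0.23. Many of the counts were 0 and stayed 0. Signs turned in 5 of those 180 and in 1 of 25 medians, all for double-null against MDR2-null and all with a main value of at most 0.07 in size: the member median (-0.02 with median centring), H2-DMa (-0.01 with cyclic loess, -0.02 with median centring), H2-Ea (0.05 with hepatocyte centring) and Ciita (0.01 with cyclic loess, 0.03 with hepatocyte centring). For GHR-null against wild type the count of members at least 1.5-fold higher, 4, was 1 at a 2-fold threshold, 2 with cyclic loess and 2 with median centring of the arrays. For double-null against MDR2-null the count of 1 was 0 at a 2-fold threshold and 0 with that centring. The median for double-null against GHR-null, 1.08, was 1.39 over members passing the filter. With no level filter, the 6 limma calls for MDR2 loss became 0, and with trend and robust settings they became 5. No paired analysis was possible because each genotype is 1 array, and no array could be left out of the additive fit. Scaling moved the median of all genes by up to 0.14 (hepatocyte centring, in both comparisons of the double-null pool with the GHR-null and wild-type pools). Signal over background limits H2-Oa, H2-Ob and Ciita.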

Other observations

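H2-Eb2, a further E beta chain gene of the class II region that is not among the members, was 29 in wild-type, 28 in MDR2-null, 29 in GHR-null and 36 in double-null liver, under the level filter throughout.

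The 3 genes outside class II that carried the X and Y pair in their promoter window and were at least 1.5-fold higher in the MDR2-null than in the wild-type pool were Mfsd7a, Sult1a1 and Tle4, at log2 differences of 0.60, 0.61 and 0.74. They were chosen after their values were seen. They are 3 of 53 such genes passing the filter, near the 6.11% of all genes passing that were as much higher.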
